A study of Arabidopsis thaliana with 12 samples.

Results

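The transcriptome of leaves of the Arabidopsis thaliana line cat2 gox2 was set against that of cat2 gox1 under high CO2, using the 3 libraries of each line that were taken in that condition. These are 6 of the 12 libraries of the series, and the other 6 are the same lines after high light. All plants were Columbia-0, were 3 weeks old and had grown in air with 3000 ppm CO2 at an irradiance of 120 µmol photons m-2 s-1. The cat2 gox2 plants carry the cat2-2 allele together with a gox2 mutation, and the cat2 gox1 plants carry cat2-2 together with a gox1 mutation. CATALASE 2 (CAT2) is therefore mutated in both lines, and neither plants with an intact CAT2 nor plants with cat2-2 alone are among the samples. Each library came from pooled middle-aged leaves of 15 plants, and the whole experiment was carried out 3 times, so that a number from 1 to 3 marks the repeat. What kind of mutation gox1 and gox2 are, and how many independent lines were used, the sources used here do not say. The high light plants had in addition been kept for 3 h in ambient air (400 ppm CO2) under 1200 µmol photons m-2 s-1.

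Photorespiration begins when Rubisco fixes oxygen in place of CO2. The glycolate formed in this way moves to the peroxisome, where GLYCOLATE OXIDASE 1 (GOX1) and 2 (GOX2), the main leaf glycolate oxidases, oxidise it and release hydrogen peroxide, which CAT2, the main leaf catalase, breaks down. High CO2 favours carboxylation and keeps the glycolate flux low, which is why catalase mutants are commonly raised in it. The comparison asks how leaves with a mutation in one or the other oxidase differ while photorespiration is low.

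GOX1 and GOX2 are similar neighbours, which matters because a read has to be placed on one of the pair. In the TAIR10.1 assembly both lie on the plus strand of chromosome 3, GOX2 (AT3G14415) at chr3:4818251-4821013 and GOX1 (AT3G14420) at chr3:4821391-4824178, with 377 bases between them. Their reference coding sequences in RefSeq are 1122 bases long for GOX2 and 1104 for GOX1, and 84 of 1104 aligned bases differ, an identity of 92.4%. The longest identical run is 68 bases in the spliced coding sequence, the form that mRNA reads come from, and 49 bases within a single exon. The 60 coding bases in which they differ most are shown, at chr3:4823829-4823888 in GOX1 and chr3:4820678-4820737 in GOX2, because reads over such stretches are the ones that tell the genes apart. Capitals mark the 13 positions at which the bases differ.
GOX1: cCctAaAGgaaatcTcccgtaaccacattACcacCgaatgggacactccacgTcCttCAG
GOX2: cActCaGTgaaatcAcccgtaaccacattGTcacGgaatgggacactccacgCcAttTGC

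In edgeR's quasi-likelihood fit of the 6 libraries, GOX1 and GOX2 were the 2 genes that passed, in opposite directions. DESeq2 on the same libraries called 3 further loci of low level on chromosome 3, which are described with their counts at the end. GOX1 had 1861, 2012 and 2169 CPM in cat2 gox2 in repeats 1, 2 and 3, against 275, 252 and 232 CPM in cat2 gox1. CPM, the usual unit of depth-normalised counts, relate the counts of a gene to the scaled library total. All 3 cat2 gox2 libraries lay far above the 3 cat2 gox1 libraries, with means of 2014 ± 154 CPM in cat2 gox2 and 253 ± 21.5 CPM in cat2 gox1 (SD, n = 3 each). The log2 difference of GOX1 was 2.99 (SE 0.146, 95% interval 2.64 to 3.35, adjusted p = 0.00346, edgeR's quasi-likelihood test), and 12.6% of the cat2 gox2 level remained in cat2 gox1. With replicate 1 of cat2 gox1 left out GOX1 did not pass (log2 3.05, adjusted p = 0.0883), nor did it with replicate 2 of cat2 gox1 left out (log2 2.99, adjusted p = 0.114), while the size of the difference hardly moved.

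GOX2 showed the opposite direction and a larger difference. It fell to 15.8, 16.4 and 16.6 CPM in cat2 gox2, against 1161, 1138 and 906 CPM in cat2 gox1. The means were 16.3 ± 0.422 CPM in cat2 gox2 and 1068 ± 141 CPM in cat2 gox1 (SD, n = 3 each), so that 1.53% of the cat2 gox1 level remained in cat2 gox2. The log2 difference was -6.03 (SE 0.174, 95% interval -6.45 to -5.62, adjusted p = 0.000233). In a fit of all 12 libraries GOX2 did not pass (log2 -6.05, adjusted p = 0.307), and in that fit without cat2 gox2 high light replicate 2 it passed (log2 -6.05). That library held far more GOX2 counts than the other high light libraries of its line. Both genes thus went the way the labels give. Reads that match both neighbours may have been dropped or placed on either gene, so the residual levels are uncertain.

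CAT2 (AT4G35090), at chr4:16700312-16703504 on the minus strand, had 98.2, 118 and 105 CPM in cat2 gox2, against 92.9, 93.2 and 93.7 CPM in cat2 gox1. The libraries of the lines did not overlap, but the difference was small and did not pass (log2 0.20, 95% interval -0.07 to 0.47). Blocking for the repeat gave the same log2 and an adjusted p of 0.408. The check of the cat2 mutation itself needs plants with an intact CAT2 and could not be made.

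**Figure D1:**
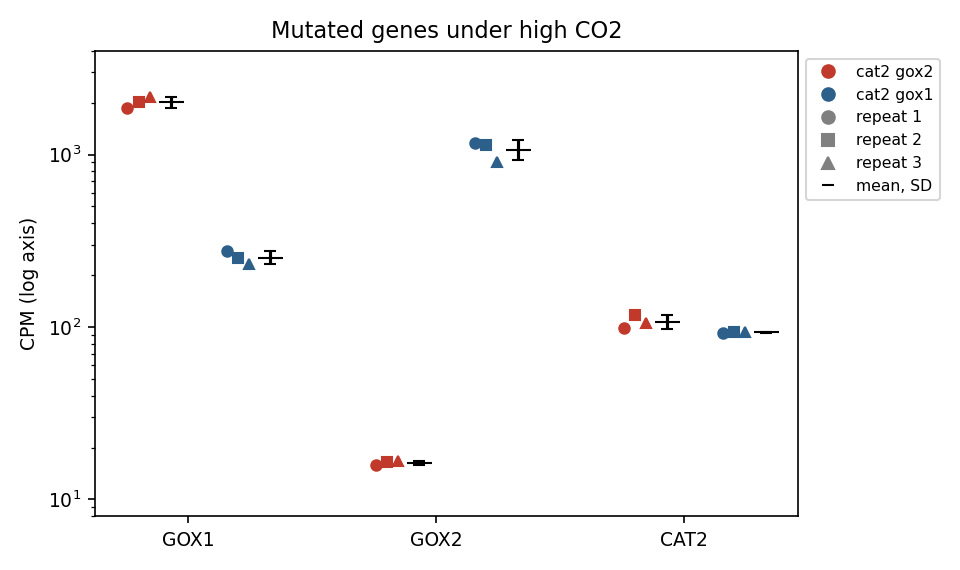
Levels of GOX1, GOX2 and CAT2 under high CO2 in CPM on a log axis, cat2 gox2 in red on the left and cat2 gox1 in blue on the right of each gene. Each symbol is 1 library, and the bar gives mean and SD of 3. GOX1 stands at 1861 to 2169 CPM in cat2 gox2 and 232 to 275 CPM in cat2 gox1, GOX2 at 15.8 to 16.6 CPM in cat2 gox2 and 906 to 1161 CPM in cat2 gox1, and CAT2 at 98.2 to 118 CPM in cat2 gox2 and 92.9 to 93.7 CPM in cat2 gox1.

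Taken per length, the level counted for the remaining oxidase was higher in cat2 gox2. GOX1, the gene left intact in cat2 gox2, had 1065 ± 81.5 RPKM there, and GOX2, the gene left intact in cat2 gox1, had 618 ± 81.5 RPKM in that line (SD, n = 3 each), a ratio of 1.72. The summed level of both genes was 993, 1073 and 1156 RPKM in cat2 gox2, against 817, 791 and 647 RPKM in cat2 gox1. The groups did not overlap, the ratio of the means was 1.43, and the exact two-sided permutation p was 0.1, the smallest that 3 against 3 libraries allow. RPKM here divides CPM by the exon length of the gene in kilobases. The lengths are those of the TAIR10.1 gene models, whereas the submitters' processing notes name TAIR10, and how reads that match both genes were handled is not given in the sources used here, so the ratio between the genes carries both uncertainties. In pooled leaves, fewer cells of a type and less RNA per cell cannot be told apart in such levels.

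Across the transcriptome, 2 of 18076 genes tested passed an adjusted p of 0.05 (0.0111%), GOX1 higher and GOX2 lower in cat2 gox2, which is 0.00553% in each direction. The third-lowest adjusted p was 0.238. Point estimates were split evenly, with 9069 genes higher and 9007 lower in cat2 gox2, a median log2 difference of 0.000647, and the central 95% of genes between -0.47 and 0.45. At an unadjusted p under 0.05 there were 367 genes (2.03%), and 1458 genes had no overlap between the lines (8.07%), 718 higher (3.97%) and 740 lower (4.09%) in cat2 gox2.

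The intervals, taken gene by gene without adjustment, say how large a difference the values of a gene allow. They are not the detection limit of the test across all genes. For 14337 genes (79.3%) the 95% interval of the log2 difference lay within a 2-fold change in either direction. Among the 13127 genes that averaged 5 CPM or more the share was 89.1%, and 23 of these had a point estimate of at least 2-fold. The spread between repeats widened the intervals: the biological coefficient of variation was 0.238, and 0.0991 with the repeat as a block. In the fit with the block GOX1 (adjusted p = 8.44e-05) and GOX2 (adjusted p = 2.62e-06) again passed and no further gene did, the next adjusted p being 0.0588. The block moved the number of genes with an unadjusted p under 0.05 to 2095 (11.6%), and its intervals lay within a 2-fold change for 92.8% of all genes and 99.1% of those with at least 5 CPM.

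**Figure D2:**
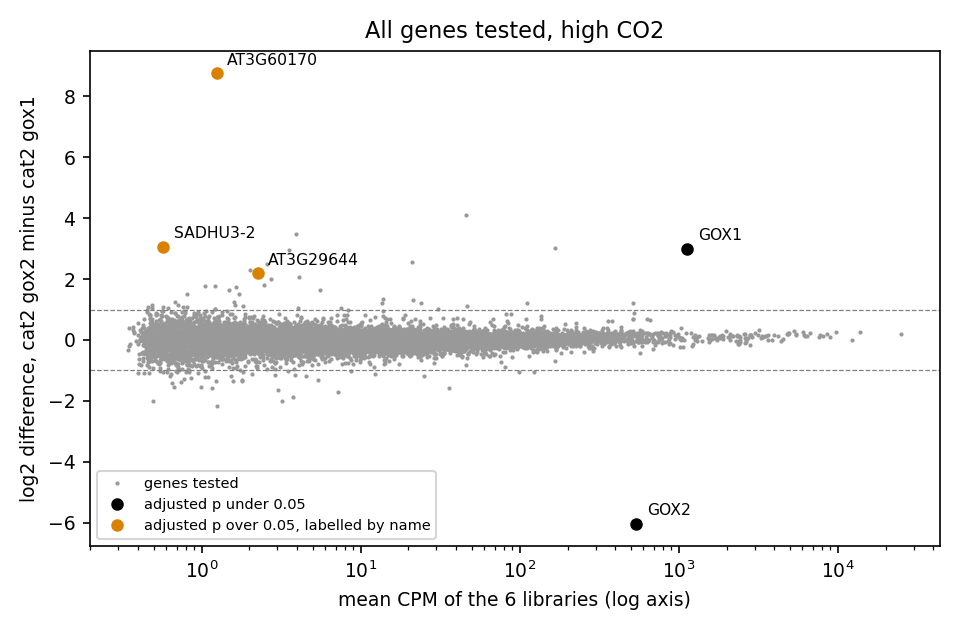
Log2 difference of cat2 gox2 minus cat2 gox1 for each of the 18076 genes tested under high CO2, against its mean CPM over the 6 libraries on a log axis. Dashed lines mark a 2-fold difference. GOX1 at 2.99 and GOX2 at -6.03 (black) passed the test, and the 3 orange loci of chromosome 3, chosen after their values were seen, did not.

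Number 3 of both lines parted from the other libraries more than the lines parted from each other. The libraries of number 3 of both lines stood apart along the first dimension of a multidimensional scaling, which held 59.6% of the variance, at 1.19 in cat2 gox2 and 1.36 in cat2 gox1, while the other libraries lay between -0.87 and -0.30. The second dimension held 14.3% of the variance and separated the lines. Along it the cat2 gox2 libraries lay between 0.22 and 0.72 and the cat2 gox1 libraries between -0.68 and -0.20. Compared with numbers 1 and 2 of its own line, number 3 was at least 2-fold higher in both lines for 410 genes, at least 2-fold lower in both for 462, and opposite for 5. Members of the flavonoid list had a median shift in number 3 of 1.01 (log2) in cat2 gox2 and 1.17 in cat2 gox1, the abscisic acid list 0.89 and 0.98, and the Calvin cycle list -0.46 and -0.50. Salicylate genes shifted by 0.28 in cat2 gox2 and 1.26 in cat2 gox1. The part of these shifts in the line differences was not tested beyond the values within each repeat given below.

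A difference of at least 1.5-fold that held in every repeat was rare. Of the genes with at least 5 CPM, 5 were at least 1.5-fold different in the same direction in all 3 repeats, and GOX1 and GOX2 were the 2 that stayed at 2-fold. The other 3 were chosen after their values were seen. AT4G01390, annotated as a TRAF-like protein, had 10.01, 1.25 and 12.1 CPM in cat2 gox2, against 19.4, 3.39 and 27.4 CPM in cat2 gox1. AT3G10300, annotated as a calcium-binding EF-hand protein, had 9.45, 7.18 and 14.0 CPM in cat2 gox2, against 3.51, 3.83 and 7.53 CPM in cat2 gox1. The pseudogene AT4G16870 had 9.50, 8.44 and 7.27 CPM in cat2 gox2, against 14.9, 15.9 and 12.4 CPM in cat2 gox1. The groups overlapped for AT4G01390 and AT3G10300, and they did not for AT4G16870. None of the 3 passed the test across all genes.

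Gene lists of 22 pathways, responses and cell types, with 345 members of which 311 were tested, were read next. Apart from the 2 oxidases, none of the 309 tested members was called by edgeR, with or without the repeat block, or by DESeq2. An unadjusted p under 0.05 was found for 5 of them (1.62%, against 2.03% of all genes), BOU, UGT74E2, APX1, PHO1;H1 and SWEET12, each described below. With the repeat block 75 had one (24.3%, against 11.6% of all genes). The values that follow are therefore descriptions of small or uncertain differences, named as the 2 members of each list with the lowest unadjusted p.

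No member of the photorespiratory pathway other than the mutated oxidases passed. Of its 33 members 32 were tested, and 1 rose and 1 fell in cat2 gox2, the oxidases themselves, which were altered by construction. By point estimate 26 were higher and 6 lower, with a median log2 difference of 0.11, and 27 intervals lay within 2-fold. A further close relative, GOX3, was below the filter on low counts, with 9, 2 and 30 counts in cat2 gox2, against 2, 5 and 40 counts in cat2 gox1. The hydroxyacid oxidase HAOX1, which acts on other 2-hydroxy acids, had 10.6, 10.12 and 19.3 CPM in cat2 gox2, against 9.02, 9.14 and 19.3 CPM in cat2 gox1. HAOX2, its close relative, had 15.6, 18.5 and 14.5 CPM in cat2 gox2, against 14.6, 19.1 and 15.6 CPM in cat2 gox1. All 3 relatives overlapped between the lines.

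The other catalases overlapped as well. CAT1 had 61.8, 69.3 and 62.5 CPM in cat2 gox2, against 60.7, 62.1 and 65.3 CPM in cat2 gox1. CAT3, whose transcript follows the circadian clock, had 2003, 2459 and 2354 CPM in cat2 gox2, against 2184, 2310.0 and 2915 CPM in cat2 gox1. Their log2 differences were 0.04 (95% interval -0.20 to 0.29) for CAT1 and -0.12 (95% interval -0.54 to 0.29) for CAT3. Both intervals lay within a 2-fold change.

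Downstream of glycolate oxidation, the mitochondrial carrier gene BOU, which photorespiration requires, chosen after its values were seen, had 159.7, 156 and 174 CPM in cat2 gox2, against 138, 131 and 134 CPM in cat2 gox1, without overlap (log2 0.28, unadjusted p = 0.0342, adjusted p with the repeat block 0.350). The glycine decarboxylase subunit gene GDCH, named on the same ground, had 901, 989 and 814 CPM in cat2 gox2, against 823, 831 and 662 CPM in cat2 gox1. Its values overlapped, and within each repeat cat2 gox2 was the higher one. Neither passed across all genes.

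Photosynthesis genes had small point estimates, mostly above 0, and none passed. All 18 members of the light-harvesting antenna list, which bind chlorophyll in the photosystems, were higher in cat2 gox2 by point estimate, against 50.2% of all genes, with a median log2 difference of 0.18 and a range of 0.09 to 0.31. None was called, 17 intervals lay within 2-fold, and 2 members did not overlap, against 8.07% of all genes. The medians within repeats 1, 2 and 3 were 0.04, 0.31 and 0.20, and leaving out each library in turn gave 0.04 to 0.23. LHCB4.3, a minor antenna protein of photosystem II, had 623, 710.5 and 741 CPM in cat2 gox2, against 566, 599 and 587 CPM in cat2 gox1. LHB1B2, of the major antenna of photosystem II, had 9139.5, 11832 and 10753 CPM in cat2 gox2, against 8704, 8742 and 9159 CPM in cat2 gox1. In the fit with the repeat block 9 of the 18 had an unadjusted p under 0.05, against 11.6% of all genes, and none passed after adjustment. Antenna genes are among the most abundant leaf transcripts, with a summed level of 92585 to 126378 CPM in cat2 gox2 and 80350 to 101780 CPM in cat2 gox1, so the group ranges overlapped.

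The Calvin cycle list, the enzymes of carbon fixation, gave 15 of 20 members higher in cat2 gox2, a median log2 difference of 0.13 and no call. The median turned to -0.04 without cat2 gox1 high CO2 replicate 3. CP12-1, a small regulator of the cycle, had 586, 737 and 608 CPM in cat2 gox2, against 553, 590.4 and 443 CPM in cat2 gox1. The aldolase FBA1 had 2967, 3303 and 2821 CPM in cat2 gox2, against 2950.3, 2781 and 2306 CPM in cat2 gox1. Both overlapped between the lines and were higher in cat2 gox2 within every repeat.

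**Figure D3:**
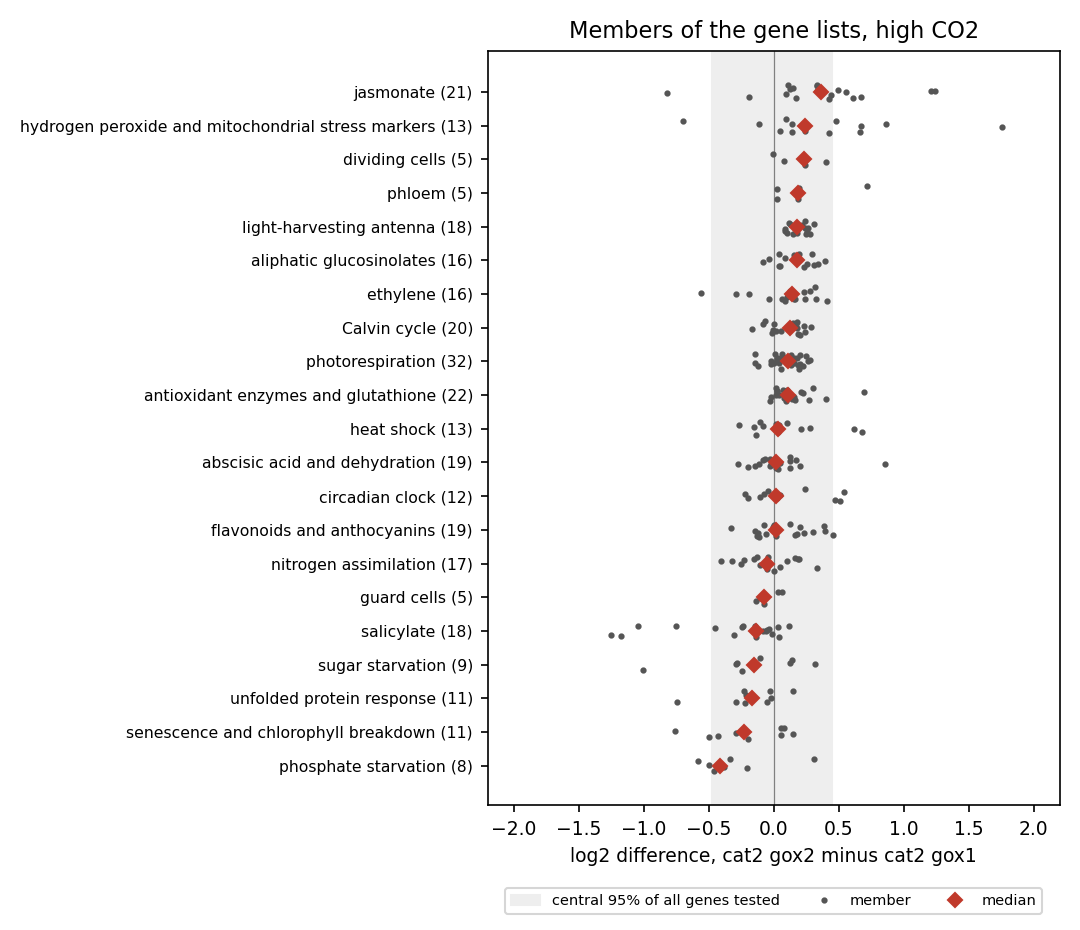
Log2 differences, cat2 gox2 minus cat2 gox1, of the tested members of each gene list (grey points, number tested in brackets) with the list median (red diamond). The shaded band holds the central 95% of all genes tested, -0.47 to 0.45. GOX1, GOX2, VSP1 and VSP2 lie beyond the axis and are not drawn, and every median lies within the band.

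Markers of hydrogen peroxide and mitochondrial stress did not pass in either direction. Of 20 members 13 were tested, and 11 of these were higher in cat2 gox2 by point estimate, with a median log2 difference of 0.24. UGT74E2, an auxin glycosyltransferase gene used as a hydrogen peroxide marker, had 1.62, 0.868 and 3.15 CPM in cat2 gox2, against 0.501, 0.446 and 0.695 CPM in cat2 gox1. The groups did not overlap, and the difference had a log2 of 1.76 (95% interval 0.52 to 2.99, unadjusted p = 0.0125, adjusted p with the repeat block 0.326). AT5G09570, a mitochondrial stress marker, had 2.63, 4.15 and 4.22 CPM in cat2 gox2, against 2.31, 2.18 and 3.67 CPM in cat2 gox1, which overlapped. The classical marker APX2, a heat and light responsive ascorbate peroxidase, had 0, 1 and 0 counts in cat2 gox2, against 1, 0 and 1 counts in cat2 gox1. Of the 13 intervals 3 lay within 2-fold. With replicate 3 left out the list median was -0.0065 (that of cat2 gox2) or 0.83 (that of cat2 gox1).

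Heat shock genes gave a median log2 difference of 0.03 over the 13 of 20 members tested, 8 higher and 5 lower, and medians of -0.06 to 0.09 with each library left out in turn. The small heat shock protein gene AT2G29500 had 3.18, 3.33 and 3.39 CPM in cat2 gox2, against 1.75, 3.21 and 1.24 CPM in cat2 gox1, an overlap through repeat 2. GolS1, which makes galactinol, had 18.05, 12.1 and 45.3 CPM in cat2 gox2, against 14.1, 12.9 and 21.9 CPM in cat2 gox1. Its log2 difference was 0.62 over all 6 libraries and -0.12 without cat2 gox2 high CO2 replicate 3.

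The antioxidant gene with the lowest p was APX1, for the cytosolic ascorbate peroxidase. It had 1148, 1213 and 1153 CPM in cat2 gox2, against 861, 966 and 833 CPM in cat2 gox1. Every cat2 gox2 library lay above every cat2 gox1 library, and the log2 difference was 0.40 (95% interval 0.10 to 0.70, unadjusted p = 0.0164, adjusted p with the repeat block 0.299). The dehydroascorbate reductase gene DHAR2 had 40.9, 31.7 and 44.5 CPM in cat2 gox2, against 29.5, 36.8 and 30.6 CPM in cat2 gox1. Of the 22 antioxidant members 20 were higher by point estimate with a median log2 of 0.11, none was called, and 18 intervals lay within 2-fold. With replicate 3 of cat2 gox1 left out the median was -0.0073.

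Nitrogen assimilation, which recycles photorespiratory ammonium, had 7 members higher and 10 lower of 17, a median log2 of -0.05 (-0.12 to -0.0087 with each library left out in turn) and no call. The nitrate reductase gene NIA1 had 83.6, 124 and 108 CPM in cat2 gox2, against 121, 105 and 191 CPM in cat2 gox1. The glutamate dehydrogenase gene GDH1 had 22.95, 23.3 and 22.1 CPM in cat2 gox2, against 26.1, 23.1 and 25.6 CPM in cat2 gox1. Both overlapped.

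Jasmonate genes had the highest list median among the lists with at least 3 tested members, 0.36, with 19 of 21 tested members higher in cat2 gox2 and none called. It rested on repeats 1 and 3, with medians of 0.48, -0.07 and 0.47 in repeats 1, 2 and 3, and it turned to -0.03 without cat2 gox2 high CO2 replicate 3. VSP2, a vegetative storage protein gene induced by jasmonate, had 51.8, 34.4 and 810.2 CPM in cat2 gox2, against 25.01, 59.8 and 25.6 CPM in cat2 gox1. VSP1, its close copy, named after its values were seen, had 4.95, 2.84 and 253 CPM in cat2 gox2, against 1.95, 9.67 and 3.47 CPM in cat2 gox1, and reads may be shared between the copies. In both genes 1 library, number 3 of cat2 gox2, carried the difference, and the log2 difference of VSP2 was 3.02 with it and 0.23 without it. The defensin gene PDF1.2, which responds to jasmonate and ethylene, had 8.09, 14.6 and 34.7 CPM in cat2 gox2, against 7.12, 7.31 and 10.3 CPM in cat2 gox1. It was higher in cat2 gox2 within each repeat, and the groups overlapped (log2 1.21, unadjusted p = 0.0542, adjusted p with the repeat block 0.347).

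Salicylate genes differed in direction between the repeats. Their medians within repeats 1, 2 and 3 were 0.45, -0.03 and -0.63, and over all 6 libraries 15 of 18 tested members were lower in cat2 gox2 with a median log2 of -0.14 and no call. The median turned to 0.31 without cat2 gox1 high CO2 replicate 3 and to 0.13 without number 3 of both lines, and leaving out each library in turn gave -0.41 to 0.31. BGL2, a pathogenesis-related glucanase gene, had 53.3, 40.4 and 100.03 CPM in cat2 gox2, against 39.5, 54.4 and 306 CPM in cat2 gox1. The transcription factor gene WRKY38 had 0.910, 0.145 and 0.485 CPM in cat2 gox2, against 0.351, 0.490 and 2.74 CPM in cat2 gox1. In each the high value of cat2 gox1 was number 3, and without that library the log2 difference was 0.45 for BGL2, in place of -1.05, and 0.26 for WRKY38, in place of -1.25.

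Ethylene genes were mostly higher in cat2 gox2 by point estimate, and abscisic acid and flavonoid genes were near even, with list medians of 0.14 (12 of 16 tested higher), 0.02 (10 of 19) and 0.02 (11 of 19) and no call. Leaving out each library in turn gave medians of -0.03 to 0.31, -0.38 to 0.42 and -0.39 to 0.49 for these lists. All 3 medians were highest without replicate 3 of cat2 gox1 and lowest, below 0, without replicate 3 of cat2 gox2. The ethylene response factor gene ORA59 had 1.87, 1.69 and 2.09 CPM in cat2 gox2, against 2.56, 1.83 and 3.90 CPM in cat2 gox1. ERF104, of the same family, had 4.297, 3.62 and 4.85 CPM in cat2 gox2, against 2.71, 3.25 and 4.17 CPM in cat2 gox1. Both overlapped, in opposite directions by their means. The abscisic acid responsive phosphatase gene HAI1 had 1.62, 0.386 and 4.02 CPM in cat2 gox2, against 0.601, 0.669 and 2.01 CPM in cat2 gox1. P5CS1, for proline synthesis, had 271, 334 and 199 CPM in cat2 gox2, against 314, 379 and 226 CPM in cat2 gox1. P5CS1 was lower in cat2 gox2 within each repeat (log2 -0.21, -0.18 and -0.19) while its groups overlapped. The flavonol synthase gene FLS1 had 53.5, 40.7 and 56.2 CPM in cat2 gox2, against 38.1, 31.5 and 45.7 CPM in cat2 gox1, and its activator MYB111 had 5.06, 5.74 and 7.42 CPM in cat2 gox2, against 5.41, 3.61 and 4.86 CPM in cat2 gox1. FLS1 was higher in cat2 gox2 within each repeat (log2 0.49, 0.37 and 0.30), and MYB111 in 2 of 3.

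Aliphatic glucosinolate genes, which make defence compounds from methionine, had 14 of 16 members higher, a median log2 of 0.18, no call and 15 intervals within 2-fold. The plastid transporter gene BAT5 had 72.1, 90.6 and 91.5 CPM in cat2 gox2, against 60.4, 59.0 and 81.3 CPM in cat2 gox1. IMD1, for the methionine chain elongation, had 368, 444 and 495 CPM in cat2 gox2, against 389.6, 329 and 375 CPM in cat2 gox1. The list median within repeat 1 was -0.09, against 0.41 in repeat 2 and 0.16 in repeat 3. Leaving out each library in turn gave 0.04 (without cat2 gox2 high CO2 replicate 3) to 0.28 (without cat2 gox2 high CO2 replicate 1).

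Phosphate starvation genes had the lowest list median. Of 8 members 7 were lower in cat2 gox2, the median log2 difference was -0.41, and the medians within repeats 1, 2 and 3 were -0.38, -0.30 and -0.43. PHO1;H1, of the PHO1 family of phosphate exporters, had 18.9, 17.1 and 13.7 CPM in cat2 gox2, against 24.8, 23.9 and 18.6 CPM in cat2 gox1. The groups overlapped slightly, and cat2 gox2 was lower within each repeat by a similar amount (log2 -0.39, -0.48 and -0.44, adjusted p with the repeat block 0.326). SPX1, a phosphate sensor gene, had 50.7, 48.4 and 72.3 CPM in cat2 gox2, against 65.0, 60.3 and 116 CPM in cat2 gox1. With the repeat block 7 of the 8 had an unadjusted p under 0.05, against 11.6% of all genes, and none passed after adjustment. The exception in direction, the sensor gene SPX3, chosen after its value was seen, had 2.02, 1.25 and 5.62 CPM in cat2 gox2, against 1.95, 1.38 and 3.78 CPM in cat2 gox1. Without cat2 gox1 high CO2 replicate 3 the list median was -0.15.

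**Figure D4:**
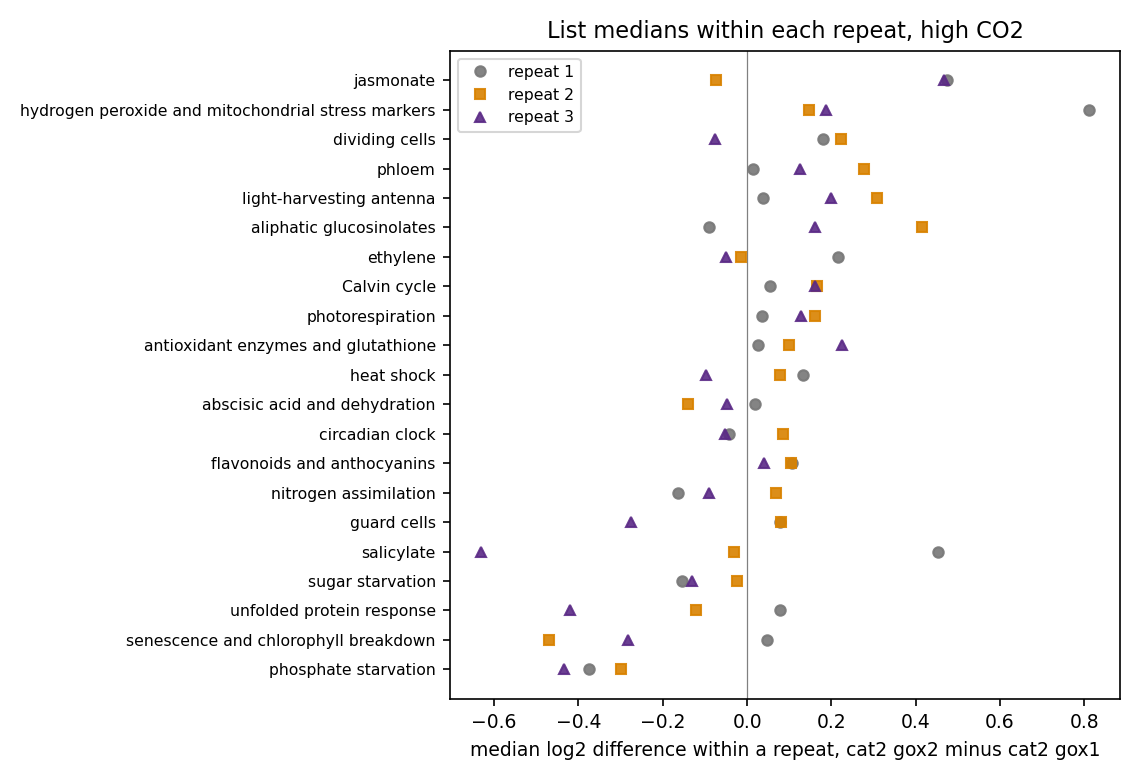
Median log2 difference of each list within repeats 1 (grey circle), 2 (orange square) and 3 (purple triangle), cat2 gox2 minus cat2 gox1. The phosphate starvation medians lie at -0.43 to -0.30 and the antenna medians at 0.04 to 0.31, whereas the salicylate medians run from -0.63 to 0.45 and those of the jasmonate list from -0.07 to 0.48.

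The unfolded protein response list, chaperones of the endoplasmic reticulum, had 10 of 11 members lower in cat2 gox2, a median log2 of -0.17 and no call. The chaperone gene BIP1 had 121, 111 and 116 CPM in cat2 gox2, against 114, 136 and 174 CPM in cat2 gox1. CNX1, for calnexin, had 105, 97.6 and 89.5 CPM in cat2 gox2, against 100.5, 111 and 131 CPM in cat2 gox1. The list median was 0.08 within repeat 1 and -0.42 within repeat 3, and over all repeats -0.03 without cat2 gox1 high CO2 replicate 3.

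Senescence genes had a median log2 of -0.23 over 11 tested members, 7 of them lower, and sugar starvation genes -0.15 over 9, 6 of them lower, with no call in either list. WRKY53, a regulator of leaf senescence, had 3.29, 2.22 and 3.15 CPM in cat2 gox2, against 3.36, 3.48 and 4.79 CPM in cat2 gox1, without overlap (log2 -0.43, 95% interval -0.999 to 0.14). XTH24, a cell wall enzyme gene on the senescence list, had 54.4, 49.5 and 89.6 CPM in cat2 gox2, against 57.6, 74.0 and 94.98 CPM in cat2 gox1. The senescence median turned to 0.42 without cat2 gox1 high CO2 replicate 3 and to 0.04 without cat2 gox2 high CO2 replicate 2. Of the sugar starvation genes, BCE2 for branched-chain amino acid breakdown had 19.0, 19.6 and 17.1 CPM in cat2 gox2, against 16.4, 18.1 and 16.5 CPM in cat2 gox1. MCCA, for leucine breakdown, had 24.8, 28.3 and 26.6 CPM in cat2 gox2, against 27.6, 28.8 and 29.1 CPM in cat2 gox1.

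The circadian clock list had a median log2 of 0.02 with 7 of 12 tested members higher and no call. Clock genes peak at different times of day, so a list median cannot tell whether the lines were sampled at the same time. PCL1, an evening complex gene, had 3.59, 5.35 and 3.83 CPM in cat2 gox2, against 3.01, 3.57 and 2.39 CPM in cat2 gox1. ELF3, of the same complex, had 12.5, 10.9 and 12.2 CPM in cat2 gox2, against 10.2, 10.9 and 9.19 CPM in cat2 gox1. Neither overlapped, both by a small margin, and 3 of the 12 did not overlap, against 8.07% of all genes. Leaving out each library in turn gave list medians of -0.07 to 0.14.

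No cell type marker passed the test. The guard cell list had a median log2 of -0.08 over 5 members, with KAT1, a potassium channel gene, at 25.7, 26.5 and 23.8 CPM in cat2 gox2, against 23.4, 25.05 and 24.4 CPM in cat2 gox1, and the transcription factor gene MYB60 at 12.99, 11.2 and 8.53 CPM in cat2 gox2, against 13.7, 11.2 and 10.3 CPM in cat2 gox1. All 5 guard cell intervals lay within 2-fold, and the list median was -0.12 to 0.06 with each library left out in turn. All 5 phloem members were higher in cat2 gox2 by point estimate, with a median of 0.19 and a summed level of 803 to 1008 CPM in cat2 gox2 and 654 to 893 CPM in cat2 gox1. The median turned to -0.03 without cat2 gox1 high CO2 replicate 2. SWEET12, a sucrose exporter gene of the phloem parenchyma, had 37.9, 43.4 and 70.1 CPM in cat2 gox2, against 33.5, 25.5 and 33.0 CPM in cat2 gox1. It did not overlap (log2 0.72, 95% interval 0.11 to 1.33, unadjusted p = 0.0274, adjusted p with the repeat block 0.347). SWEET11, its partner, had 244, 242 and 266 CPM in cat2 gox2, against 242, 199.7 and 219 CPM in cat2 gox1.

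Markers of dividing cells were low in both lines, with a summed level of 12.2 to 21.5 CPM in cat2 gox2 and 12.4 to 19.6 CPM in cat2 gox1. CDKB1;1, a cell cycle kinase gene, had 1.57, 2.51 and 0.970 CPM in cat2 gox2, against 1.65, 1.34 and 0.849 CPM in cat2 gox1. The cyclin gene CYC1BAT had 3.59, 4.34 and 2.57 CPM in cat2 gox2, against 2.91, 3.97 and 2.01 CPM in cat2 gox1. Of the meristem and flower markers, STM, KNAT1, AP1 and PI were below the filter, at 0 to 5 counts in every library, and the floral regulator AG had 0.809, 0.964 and 1.21 CPM in cat2 gox2, against 1.303, 1.203 and 0.772 CPM in cat2 gox1. The leaf label thus stands beside abundant antenna and Calvin cycle transcripts and near-absent meristem markers.

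No other gene around the mutated loci was called. Within 500 kb of GOX1 or GOX2, 201 genes were tested, and GOX1 and GOX2 were the 2 called. Of the other 199, 2 had an unadjusted p under 0.05 and 13 (6.53%) did not overlap between the lines, against 8.07% of all genes. The neighbour on the far side of GOX2, AT3G14410, at chr3:4815763-4817981 and annotated as a nucleotide/sugar transporter family protein, was chosen after its values were seen. It had 14.7, 15.1 and 15.2 CPM in cat2 gox2, against 10.7, 11.9 and 10.8 CPM in cat2 gox1, without overlap (log2 0.43, 95% interval 0.18 to 0.67, unadjusted p = 0.00485, adjusted p with the repeat block 0.347). On the side of GOX1 lay AT3G14430, likewise chosen after its values were seen. Its annotation begins at chr3:4824158 and so overlaps the end of GOX1 at chr3:4824178. How reads over this overlap were counted is not given in the sources used here. The levels of AT3G14430 were 4.70, 5.01 and 7.90 CPM in cat2 gox2, against 6.82, 8.20 and 11.2 CPM in cat2 gox1. The groups overlapped, with cat2 gox2 the lower one (log2 -0.57, 95% interval -1.23 to 0.08, adjusted p with the repeat block 0.347). Around CAT2, 208 genes were tested within the same distance, none was called by edgeR and 2 had an unadjusted p under 0.05. By the block's unadjusted p under 0.05 there were 23 of the 199 near the oxidases (11.6%) and 26 of the 208 near CAT2 (12.5%), against 11.6% of all genes.

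Farther along chromosome 3 stood 3 low-level loci, chosen after their values were seen, that DESeq2 called and edgeR on the 6 libraries did not. AT3G60170, a pseudogene at chr3:22232512-22236531, had 43, 62 and 48 counts in cat2 gox2, against 0, 0 and 0 counts in cat2 gox1. Set against a floor of 3 counts over the cat2 gox1 group, it was at least 57.0-fold higher in cat2 gox2, and its adjusted p was 0.238. AT3G29644, a long non-coding RNA locus at chr3:11498879-11501424 on the minus strand, had 65, 84 and 78 counts in cat2 gox2, against 13, 17 and 26 counts in cat2 gox1. Its log2 difference was 2.19 (95% interval 1.62 to 2.75, adjusted p = 0.238), and since it overlaps AT3G29642 on the opposite strand its counts depend on the strand setting of the counting. SADHU3-2 (AT3G42658), a non-coding retrotransposon relic at chr3:14749400-14750294, had 21, 21 and 21 counts in cat2 gox2, against 3, 4 and 1 counts in cat2 gox1, a log2 of 3.06 (95% interval 1.99 to 4.13). SADHU3-2 did not pass in edgeR, and with each library left out in turn its adjusted p was at least 0.752 (edgeR's quasi-likelihood test). The loci lie 17.41, 6.68 and 9.93 Mb from GOX2. In each of them every cat2 gox2 library lay above every cat2 gox1 library. The edgeR fit of all 12 libraries called 3 of 18967 genes, all higher in cat2 gox2 (0.0158%), AT3G60170 (adjusted p = 0.00459), AT3G29644 (adjusted p = 0.0149) and GOX1.

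The high light libraries are separate samples of the same lines, but the loci were picked with results of all 12 libraries known, so their values there are a description. In those libraries 1343 of 18407 genes tested differed between the lines (7.3%), 1121 higher (6.09%) and 222 lower (1.21%) in cat2 gox2. Without cat2 gox2 high light replicate 2 there were 879 higher and 100 lower, and with the repeat block 957 higher and 133 lower. AT3G60170 had 78, 54 and 66 counts in cat2 gox2, against 1, 0 and 2 counts in cat2 gox1, a ratio of 70.0 (95% counting interval 23.61 to 342, adjusted p = 0.00061). AT3G29644 had 50, 59 and 86 counts in cat2 gox2, against 21, 11 and 15 counts in cat2 gox1 (log2 2.12, adjusted p = 0.00404). SADHU3-2 had 8, 10 and 13 counts in cat2 gox2, against 3, 6 and 0 counts in cat2 gox1, which was below the filter there, a ratio of 3.65 (95% counting interval 1.70 to 8.72). At all 3 loci every cat2 gox2 library again lay above every cat2 gox1 library. AT3G14410 differed by a log2 of 0.09 after high light and did not pass.

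**Figure D5:**
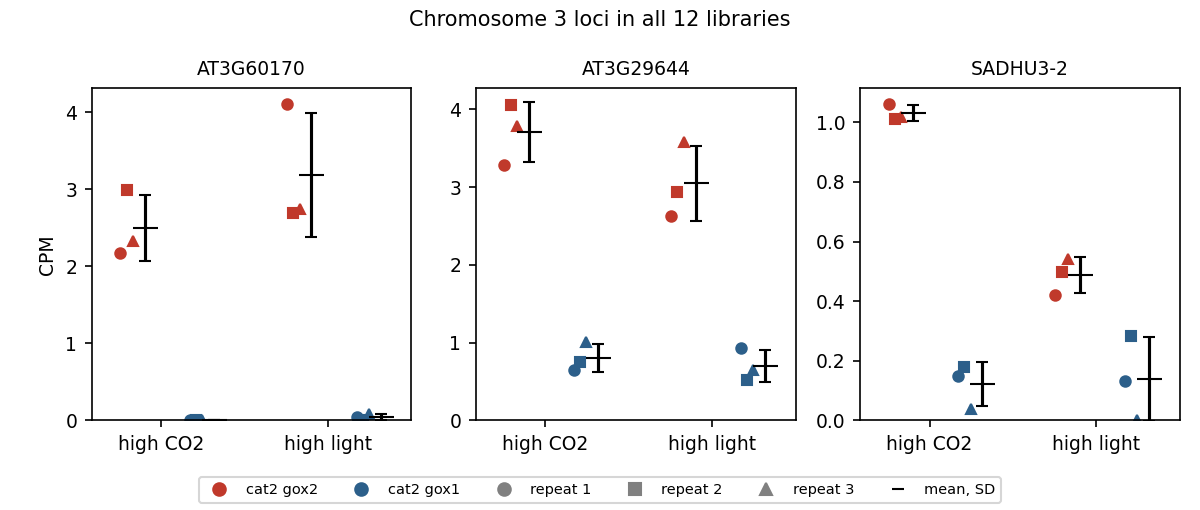
CPM of AT3G60170, AT3G29644 and SADHU3-2 under high CO2 and after high light, cat2 gox2 in red on the left and cat2 gox1 in blue on the right of each condition, with mean and SD of 3 libraries. In each panel the cat2 gox2 libraries lie above the cat2 gox1 libraries of the same condition.

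The oxidases kept their directions after high light, while the point estimate of CAT2 turned. GOX1 had 969, 1027 and 1068 CPM in cat2 gox2, against 155, 194 and 131 CPM in cat2 gox1 (log2 2.68, adjusted p = 0.00048). GOX2 had 7.69, 127 and 7.15 CPM in cat2 gox2, against 588, 669 and 462 CPM in cat2 gox1 (log2 -3.60, adjusted p = 0.0815). The odd value was number 2 of cat2 gox2, and without it the difference was -6.27 (adjusted p = 0.000241). The line difference under high CO2 minus that after high light was 0.31 for GOX1 (adjusted p = 0.763) and -2.43 for GOX2 (adjusted p = 0.537), or 0.22 for GOX2 without that library (adjusted p = 0.941), so no change of the line difference between the conditions was shown for either gene. CAT2 had 47.5, 45.9 and 47.0 CPM in cat2 gox2, against 49.8, 63.3 and 58.0 CPM in cat2 gox1 after high light. The groups did not overlap, with cat2 gox2 the lower one and no call (log2 -0.29, adjusted p = 0.195), where under high CO2 cat2 gox2 had been the higher one, also without overlap. The line difference of CAT2 under high CO2 minus that after high light was 0.48 (unadjusted p = 0.00991, adjusted p = 0.231, edgeR's quasi-likelihood test), which did not pass.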

How the data were processed

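Leaf mRNA of 12 libraries was sequenced from a stranded library kit, per the labels' protocols. The deposited values are raw counts of reads per gene, whole numbers without normalization. Trimming with Trim Galore 0.3.3, alignment with TopHat2 2.1.0, counting with featureCounts of Subread 1.4.6 and the TAIR10 build are named in the submitters' processing notes. Neither the strand option used in counting nor the handling of multi-mapped reads is stated in these sources. Of 33604 rows 2 hold header text and no gene, with no counts. Symbols and coordinates came from RefSeq's TAIR10.1, which named 32835 of 33602 loci.

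Totals of repeats 1, 2 and 3 were 20335019, 22497526 and 19883772 counts in cat2 gox2 and 20330914, 22895740 and 23266458 in cat2 gox1 under high CO2, where 1 count is at most 0.0506 CPM and 10221 loci had no count. The 6 high CO2 libraries were fitted with edgeR 4.0.16 (R 4.3.3): filterByExpr (minimum count 10, minimum total 15), TMM scaling, 1 mean per line, a two-sided quasi-likelihood test and Benjamini-Hochberg adjustment over the 18076 genes kept, which hold 99.94% of counts, at a threshold of 0.05. SE is the log2 difference divided by the square root of the F statistic, and 95% intervals use it, approximately for low counts. CPM and RPKM were computed from the counts. Medians within a repeat used log2 CPM with a prior count of 2. Floors (3 counts over a group) and counting intervals of ratios (exact binomial) use counts summed over the 3 libraries of a line. They reflect counting error alone and leave out the variation between libraries. PCR copies were not marked by molecular identifiers.

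The protocol states that the entire experiment was repeated, so the repeat was taken to pair the lines. Same-numbered libraries deviated together (correlations 0.485, 0.541 and 0.790), but numbers 1 and 2 correlated about as well across (0.437 and 0.498), and in the data number 3 alone stands apart; the fit with the repeat as a block is given beside results it changes. The members, gene lists and named genes were chosen with earlier results of these data known. The genes named are the mutated ones, all genes called in either fit, the 2 members of each list with the lowest unadjusted p, the glycolate oxidases and catalases, and those said to be chosen after their values were seen. Alternatives were RLE scaling, other filters, DESeq2 1.42.0, a robust fit, all 12 libraries, the block, and left-out libraries. Chloroplast and mitochondrial transcripts were not analysed here.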

Additional observations from a re-analysis of the deposited data

How the results depend on the processing

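The 2 calls, GOX1 and GOX2, were made with RLE scaling, without a filter on low counts, with at least 50 counts in 3 libraries, with a robust fit, without number 3 of both lines and with the replicate block on the 6 libraries. On the 6 high CO2 libraries the block changed no call of a gene named here. DESeq2 called 5 genes, 4 higher in cat2 gox2, and the fit of all 12 libraries called 3 higher and 0 lower (511 genes at an unadjusted p under 0.05). All 12 libraries without cat2 gox2 high light 2 gave 4 calls, 3 of them higher, and the replicate block in all 12 libraries gave 1 call and 0 lower. Leaving out each of the 6 libraries in turn gave 1 to 2 calls, 0 to 1 of them higher. The GOX1 log2 difference then lay between 2.93 and 3.05 (adjusted p 0.0177 to 0.114), and GOX1 did not pass without cat2 gox1 replicate 1 (adjusted p = 0.0883) or without cat2 gox1 replicate 2 (adjusted p = 0.114). GOX2 did not pass with all 12 libraries (-6.05, adjusted p = 0.307) or with the replicate block in all 12 (-6.04, adjusted p = 0.101). After high light GOX2 passed without cat2 gox2 high light replicate 2 (-6.27) and with the replicate block (-4.96). Around the oxidases, windows of 100, 500 and 2000 kb each held 2 called genes.

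Of the alternative values of the other named genes, 695 kept direction and side of the threshold, 7 passed where they had not and 10 changed sign. With 1 library left out, the log2 difference ranged from -0.12 to 0.95 for GolS1, -1.93 to 0.26 for WRKY38, -1.51 to 0.45 for BGL2, -0.16 to 1.65 for HAI1, -0.25 to 0.042 for MYB60, -0.0071 to 0.68 for CDKB1;1 and -0.33 to 0.013 for AG, and WRKY38 was at 0.29 without number 3 of both lines. The cause was not tested. Of the list medians, 306 values moved by less than the SD between the repeats and 45 by more. A move within that SD could still change the sign. The salicylate median, for example, went from -0.14 to 0.13 without number 3 of both lines. Genes with few counts limit what could be seen: 89.1% of genes with at least 5 CPM had an interval within 2-fold, against 79.3% of all genes.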

Other observations

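Genes that differed between the lines after high light were taken from the fit of the high light libraries and read in the high CO2 libraries. Of the 1121 genes higher in cat2 gox2 after high light, 976 were tested under high CO2, and 571 of these were higher in cat2 gox2 there and 405 lower (58.5% higher, against 50.2% of all genes tested). Their median log2 difference was 0.89 after high light, where they were chosen, and 0.03 under high CO2. GOX1 was the 1 gene among them called under high CO2, and 780 intervals lay within 2-fold. With the repeat block 107 had an unadjusted p under 0.05 (11.0%, against 11.6% of all genes), 83 higher and 24 lower.

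Of the 222 genes lower in cat2 gox2 after high light, 217 were tested under high CO2. Of these, 61 were higher and 156 lower in cat2 gox2 there (71.9% lower, against 9007 of all 18076 genes tested). Their median log2 difference was -0.70 after high light and -0.10 under high CO2. GOX2 was not among the 222, as it did not pass after high light (adjusted p = 0.0815, edgeR's quasi-likelihood test). Without cat2 gox2 high light replicate 2 it did pass there (adjusted p = 0.000241). None of the 217 was called by edgeR under high CO2, and 176 intervals lay within 2-fold. With the repeat block 46 had an unadjusted p under 0.05 (21.2%, against 11.6% of all genes), 6 higher and 40 lower. The difference between these shares and those of all genes was not tested.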
